A study of Mus musculus with 12 samples.

Results

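Myc and 33 genes whose products work in the nucleolus were followed in endothelial cells (ECs) sorted from the lungs of mice that were healthy or were being colonized by breast cancer cells. The 34 genes were named one by one in a list that was drawn up with earlier results of these arrays known, so their common direction is a description, and they are 34 of 18193 genes read from the arrays. Each gene was read from 1 probe set, namely the one of highest mean over the 12 arrays among those that carry only its symbol. The values are log2 signals, a brightness scale on which a difference of 1 is a doubling, and they are compared between groups for the same probe set and never between genes.

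All mice were female NSG mice, a strain that lacks T, B and natural killer cells, and the labels give no age for them. Control ECs came from healthy lungs, and the other groups came from lungs at week 1, 2 or 3 after an intravenous injection of MDA-MB-231-LM2, human breast cancer cells selected for their growth in the lung. Each of the 4 groups held 3 arrays, described in the labels as biological replicates, and their small number limits the precision of every value. ECs were sorted for CD31 and against GFP, EpCAM, CD140a, CD140b, CD11b and CD45, so the host ECs of the whole lung were measured, near to metastases and far from them alike.

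MYC is a transcription factor that, paired with MAX, binds E-boxes and raises many genes of growth, and the making of ribosomes is among its best known targets. In the nucleolus RNA polymerase I transcribes the ribosomal RNA precursor, small nucleolar ribonucleoproteins (snoRNPs) modify it, and separate sets of factors cut, fold and pack it into the small and the large ribosomal subunit. Lung ECs are largely quiescent in the healthy adult and take up growth and division again when new vessels form.

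Myc was highest at week 3. Its log2 signal was 8.16, 7.99 and 7.81 in the control arrays, 7.58, 7.81 and 7.85 at week 1, 8.31, 8.58 and 8.47 at week 2, and 9.13, 9.53 and 9.36 at week 3. All 3 week 3 arrays lay above the other 9, and the week 2 arrays lay above all control and week 1 arrays, whereas control and week 1 overlapped. At week 3 Myc rose by 1.36 on the log2 scale against control (2.56-fold, standard error 0.15, 95% confidence interval 1.01 to 1.70, limma adjusted p = 0.00572). In a bulk sample like this one, more RNA per cell and more cells of a kind that holds the RNA cannot be told apart.

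Between weeks 2 and 3 Myc rose by 0.89 (standard error 0.14, limma adjusted p = 0.0328), and between weeks 1 and 3 by 1.59 (standard error 0.15, limma adjusted p = 0.00982). The former call was lost when any 1 of the 6 arrays was left out, with differences of 0.79 to 0.99 and adjusted p-values of 0.0595 to 0.109. The latter was lost without week 1 replicate 1 (1.51, adjusted p = 0.0536) and without week 3 replicate 3 (1.59, adjusted p = 0.0616). The week 2 level differed from control by 0.47 (standard error 0.13, adjusted p = 0.275) and from week 1 by 0.71 (standard error 0.13, adjusted p = 0.318), and week 1 differed from control by -0.24 (standard error 0.14, adjusted p = 0.673), none of which passed the threshold of an adjusted p below 0.05. Ordered by their means, the groups ran from week 1 through control and week 2 to week 3, and week 1 and control did not differ beyond their spread. Myc is represented by a single probe set, so no second one was there to compare.

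**Figure D1:**
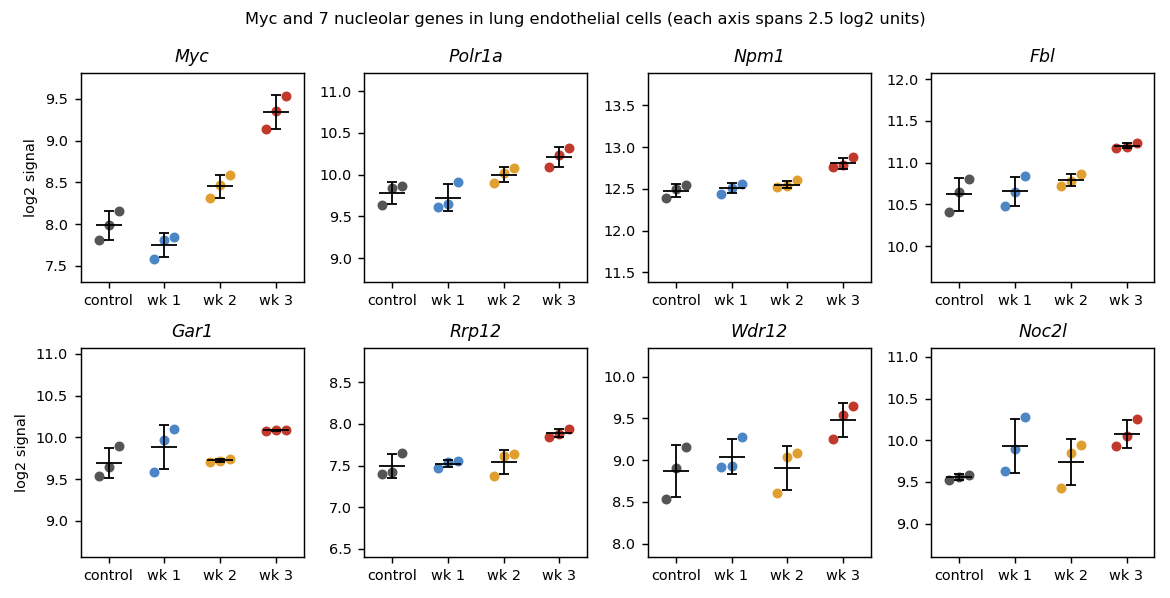
Log2 signal of Myc and of 7 nucleolar genes in each array (points) by group, with the group mean and SD (bars, n = 3 arrays). The week 3 arrays of Myc, Polr1a, Npm1, Fbl and Rrp12 lie above every other array of that gene, and the steps are smaller than that of Myc.

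None of the 33 nucleolar genes passed the threshold at week 3 against control, while 2.38% of all genes passed it upwards. At an unadjusted p below 0.05 in limma, 10 of the 33 were higher and 0 lower, against 11.7% of all genes higher. In 13 of the 33 every week 3 array lay above every control array, against 17.2% of all genes, and 31 of the 33 had a week 3 mean above control, against 54.3%. The differences ran from -0.05 to 0.62 with a median of 0.26, where the median of all genes was 0.03. Only Nop16 and Rrp1b, both factors of the large subunit, had a week 3 mean below control.

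**Figure D2:**
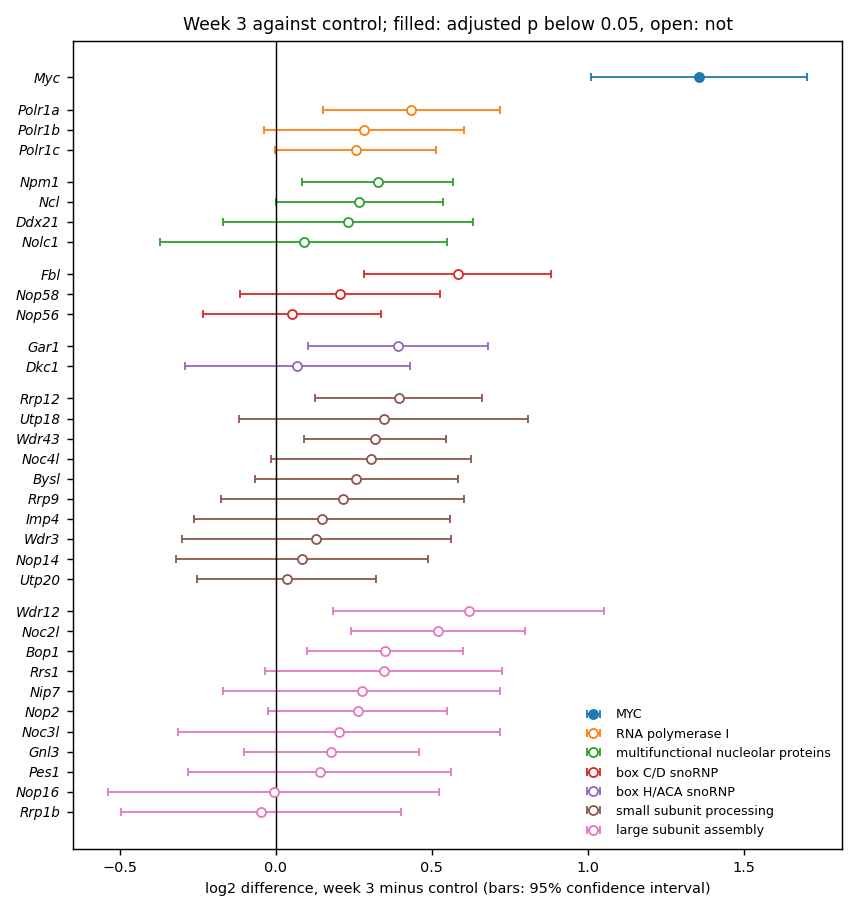
Log2 difference between week 3 and control for Myc and the 33 nucleolar genes, grouped by step and ordered within each step, with 95% confidence intervals from limma (3 arrays per group). Only Myc is filled (adjusted p below 0.05), and 31 of the 33 other points lie above 0.

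The 3 genes of RNA polymerase I had differences of 0.26 to 0.43 at week 3. Polr1a, its largest catalytic subunit, had log2 signals of 9.63, 9.84 and 9.87 in control, 9.65, 9.91 and 9.61 at week 1, 10.07, 9.90 and 10.02 at week 2, and 10.32, 10.24 and 10.09 at week 3. Its week 3 arrays were above the other 9 and its week 2 arrays were above control, an order of groups like that of Myc. The difference at week 3 was 0.43 (standard error 0.12, limma adjusted p = 0.0995), but with Polr1a read as the mean of its 5 probe sets it was 0.10. Polr1c, a subunit shared with RNA polymerase III, had 10.00, 10.04 and 9.90 in control, 9.80, 9.90 and 9.90 at week 1, 9.92, 9.84 and 9.94 at week 2, and 10.17, 10.17 and 10.36 at week 3. It too stood above every other array at week 3 (0.26, standard error 0.11), and its week 2 mean differed from control by -0.083. Polr1b, the other large catalytic subunit, differed by 0.28 (standard error 0.14) with overlapping arrays.

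Among the multifunctional nucleolar proteins, by the probe sets used, Npm1 and Ncl stood apart at week 3, and Ddx21 and Nolc1 did not. Npm1, a scaffold and chaperone of the nucleolus, had log2 signals of 12.54, 12.39 and 12.50 in control, 12.44, 12.56 and 12.52 at week 1, 12.60, 12.52 and 12.53 at week 2, and 12.78, 12.76 and 12.88 at week 3. The first 9 arrays spanned 12.39 to 12.60 and the week 3 arrays lay above that span (0.33, standard error 0.10, limma adjusted p = 0.134). Ncl, nucleolin, which binds nascent ribosomal RNA, differed by 0.27 (standard error 0.11). The probe set used for Ncl is the highest of 5, and over their mean the difference was 0.11. Another of the 5 went the other way, by -0.47 against control (standard error 0.18, limma adjusted p = 0.197). Against week 2 that probe set differed by -0.51 (limma adjusted p = 0.0935). Nolc1, a chaperone of snoRNPs, had 10.46, 11.19 and 10.55 in control, 10.86, 10.68 and 10.31 at week 1, 10.76, 10.99 and 10.90 at week 2, and 10.84, 10.86 and 10.77 at week 3. Its groups overlapped throughout, with a difference of 0.09 (standard error 0.20), but a second probe set of Nolc1 differed by 0.58 (standard error 0.13, limma adjusted p = 0.0636), another by 0.047 and the mean of the 3 by 0.24. Ddx21, an RNA helicase that acts both at ribosomal DNA and in processing, differed by 0.23 from control (standard error 0.17), but by 0.52 from week 1 (standard error 0.15, limma adjusted p = 0.191), where it was lowest.

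The core proteins of the box C/D snoRNPs, which methylate ribosomal RNA, differed unequally in their point estimates. Fbl, fibrillarin, the methyltransferase itself, had log2 signals of 10.41, 10.65 and 10.80 in control, 10.48, 10.83 and 10.65 at week 1, 10.72, 10.78 and 10.86 at week 2, and 11.24, 11.18 and 11.19 at week 3. The week 3 arrays lay close together and above all others. The difference of 0.58 (1.5-fold, standard error 0.13, 95% confidence interval 0.28 to 0.88) was just outside the threshold (limma adjusted p = 0.0527). It passed under 4 alternative settings, among them all groups in one fit (limma adjusted p = 0.0182). Under 5 others it did not pass (limma adjusted p up to 0.126). With any 1 of the 6 arrays left out it did not pass either (limma adjusted p = 0.0650 to 0.131). The other probe set of Fbl gave 0.61 (limma adjusted p = 0.0483). Nop56, one of the scaffold proteins, had 10.99, 11.13 and 10.86 in control, 10.78, 11.05 and 10.80 at week 1, 10.75, 10.64 and 11.02 at week 2, and 11.05, 10.92 and 11.16 at week 3, a difference of 0.05 from control (95% confidence interval -0.23 to 0.34), while its second probe set gave 0.23. Nop58, the partner scaffold, differed by 0.21 (95% confidence interval -0.11 to 0.52). Whether the 3 proteins of one particle differ from each other in their change was not tested.

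Of the box H/ACA snoRNPs, which turn uridine into pseudouridine, Gar1 and Dkc1 were on the list. Gar1, a small core protein, had log2 signals of 9.90, 9.54 and 9.65 in control, 9.97, 10.10 and 9.59 at week 1, 9.71, 9.72 and 9.74 at week 2, and 10.08, 10.09 and 10.08 at week 3. It was above all control and week 2 arrays at week 3 (0.39 against control, standard error 0.12, limma adjusted p = 0.133), but 1 week 1 array was as high. Dkc1, dyskerin, the pseudouridine synthase, had 10.13, 10.39 and 9.93 in control, 10.38, 10.14 and 10.38 at week 1, 10.14, 9.98 and 10.16 at week 2, and 10.05, 10.22 and 10.39 at week 3. Its groups overlapped (0.07, 95% confidence interval -0.29 to 0.43). Its 2 other probe sets gave 0.51 (standard error 0.25) and 0.28 (standard error 0.18), and the mean of the 3 gave 0.29, none of them past the threshold.

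The 10 genes of small subunit processing all had week 3 means above control, by 0.03 to 0.39 with a median of 0.24. Rrp12, an export and maturation factor, had log2 signals of 7.43, 7.65 and 7.40 in control, 7.55, 7.47 and 7.54 at week 1, 7.61, 7.64 and 7.37 at week 2, and 7.84, 7.88 and 7.94 at week 3. The week 3 arrays were above the other 9 (0.39, standard error 0.11, limma adjusted p = 0.109). Wdr43, a factor of the early complex that couples transcription to processing, behaved alike, with 9.77, 9.69 and 9.71 in control, 9.66, 9.55 and 9.85 at week 1, 9.55, 9.55 and 9.79 at week 2, and 10.07, 10.04 and 10.01 at week 3 (0.32, standard error 0.10, limma adjusted p = 0.123). Noc4l was the other gene of this step without overlap between week 3 and control (0.30, standard error 0.14). At the other end, Utp20, which belongs to the same large processome, had 10.34, 9.99 and 10.18 in control, 10.18, 10.08 and 10.16 at week 1, 10.00, 10.16 and 10.12 at week 2, and 10.21, 10.25 and 10.15 at week 3 (0.03, 95% confidence interval -0.25 to 0.32). Utp18, Bysl, Rrp9, Imp4, Wdr3 and Nop14, all processome or maturation factors of this subunit, differed by 0.35, 0.26, 0.21, 0.15, 0.13 and 0.08 in that order.

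Large subunit assembly held both the largest and the smallest differences of the 33 genes, with a median of 0.26 over its 11 genes. Wdr12, Bop1 and Pes1 form the PeBoW complex, which is needed for processing of the large subunit RNA. Wdr12 had log2 signals of 8.90, 9.16 and 8.54 in control, 9.28, 8.92 and 8.93 at week 1, 9.08, 8.60 and 9.04 at week 2, and 9.26, 9.65 and 9.54 at week 3. Week 3 was above control and week 2, and 1 week 1 array lay within it (0.62, standard error 0.18, limma adjusted p = 0.119), while the mean of its 3 probe sets differed by 0.20. Bop1 differed by 0.35 without overlap (standard error 0.11, limma adjusted p = 0.121) and Pes1 by 0.14 with overlap (standard error 0.18).

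Noc2l, which escorts precursors of the large subunit out of the nucleolus, had 9.56, 9.52 and 9.59 in control, 9.90, 10.28 and 9.63 at week 1, 9.43, 9.84 and 9.94 at week 2, and 10.25, 10.05 and 9.93 at week 3. It was next to Fbl in closeness to the threshold (0.52, standard error 0.12, limma adjusted p = 0.0595), but its week 1 arrays were also above control, so its course was not that of Myc. Its second probe set gave -0.08. Rrp1b, an RRP1 family protein, had 10.31, 10.67 and 10.38 in control, 10.50, 10.55 and 10.51 at week 1, 10.34, 10.17 and 10.43 at week 2, and 10.75, 10.40 and 10.07 at week 3 (-0.05, 95% confidence interval -0.50 to 0.40). The others of this step were Rrs1 (0.35), Nip7 (0.27), Nop2 (0.26, no overlap), Noc3l (0.20), Gnl3 (0.18) and Nop16 (-0.01). Nop2 is a methyltransferase of the large subunit RNA, and Gnl3, nucleostemin, is a GTP-binding protein abundant in dividing cells.

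The probe sets of one gene did not always move together. The 33 genes have 69 probe sets with their symbol alone, of which 59 were above 0 at week 3 against control, 1 passed the threshold upwards (the second of Fbl) and 0 downwards. Among the 23 genes with more than 1 probe set, signs differed within 8, which were Polr1a, Ncl, Nip7, Noc2l, Noc3l, Nop16, Rrp1b and Wdr12. For Nop16 the probe set used gave -0.01 and the other 0.47 (standard error 0.20), and for Rrs1 they gave 0.35 and 0.67 (standard error 0.17, limma adjusted p = 0.0734). Read as the mean of its probe sets, the difference was smaller for Bop1 (0.22), Wdr43 (0.21), Noc2l (0.22), Bysl (0.16), Nip7 (0.040) and Noc3l (0.019). The probe sets used for Rrs1, Noc4l, Polr1c, Nop56 and Gar1 carry the suffixes with which the manufacturer marks possible matches to other transcripts, and Npm1 has processed pseudogenes that its probes may read.

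The same week 3 arrays were set against weeks 2 and 1, so these comparisons share arrays with the one against control. Against week 2, 0 of the 33 genes passed the threshold (1.35% of all genes were called higher), 9 were higher at an unadjusted p below 0.05 in limma (8.61% of all genes), 12 were without overlap (12.9%) and 29 had a difference above 0 (49.9%). Fbl differed by 0.41 (limma adjusted p = 0.0830), Gar1 by 0.36 (0.0981) and Wdr43 by 0.41 (0.119), and the median of the 33 was 0.20. Against week 1, 0 passed (0.649% of all genes), 12 were higher at an unadjusted p below 0.05 (7.05%), 11 were without overlap (10.6%) and 28 had a difference above 0 (45.8%). Fbl differed by 0.55 (limma adjusted p = 0.134), Polr1a by 0.49 (0.184) and Nop58 by 0.43 (0.212), and the median was again 0.20.

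Before week 3 no nucleolar gene passed the test, in comparisons that share the control arrays. At week 1 against control, 0 of the 33 passed (0.0495% of all genes in either direction) and 0 had an unadjusted p below 0.05 in limma (8.98% of all genes), with a median of 0.04. At week 2 against control, 0 passed (0.242% of all genes) and 0 had an unadjusted p below 0.05 (10.5%), with a median of 0.05. Between weeks 2 and 1, 0 passed, as was so for 0% of all genes, and 2 had an unadjusted p below 0.05 (6.55% of all genes). Those were Ddx21 (0.35 higher at week 2, standard error 0.14) and Nop58 (0.31 higher, standard error 0.12).

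Array by array, the median deviation of the 33 genes from their control means lay between -0.10 and 0.10 in control, 0.03 and 0.05 at week 1, 0.01 and 0.11 at week 2, and 0.28 and 0.30 at week 3. Over all genes it was 0.02 to 0.03 at week 3. Thus the nucleolar genes as a list were higher in each of the 3 week 3 arrays than in any of the other 9, by a similar small amount. The 11 other proteins of snoRNPs had a median difference of 0.28 at week 3 against control, with 9 of 11 above 0 and 0 past the threshold. Nhp2, a core protein of the box H/ACA particles, had the largest (0.49, limma adjusted p = 0.0654).

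Other genes of the pathway gave few calls at week 3 against control, where 2.38% of all genes were called higher. Of 12 further genes of RNA polymerase I and its factors 0 passed, with a median of 0.09 and the largest difference in Polr1e, a subunit (0.50, standard error 0.14). Among 45 further small subunit genes 1 rose, Pno1, a factor of late 40S maturation (0.52, standard error 0.11, limma adjusted p = 0.0453), and the median was 0.13. Among 46 further large subunit genes 1 rose, Urb2 (0.86, standard error 0.12, limma adjusted p = 0.0142), and the median was 0.22. Of 16 genes of the exosome, its cofactors and other enzymes that trim ribosomal RNA 1 rose, Exosc9, a subunit of the exosome (0.96, standard error 0.12, limma adjusted p = 0.0102), with a median of 0.24. No gene of these 4 lists or of the other snoRNP proteins fell.

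Of the ribosomal proteins themselves, 44 of 78 could be read from a probe set with a single symbol. Their median difference at week 3 against control was 0.12, with 39 of 44 above 0 and 0 past the threshold, and Rpl11, a part of the large subunit, had the largest (0.31, standard error 0.11, limma adjusted p = 0.187). The MYC network, 13 genes of MYC's relatives and partners such as the MAX-binding proteins, had 0 calls, 10 of 13 below 0 and a median of -0.21. Mlxip, a relative of MYC that answers to glucose, had the largest difference there (-0.43, standard error 0.12, limma adjusted p = 0.103).

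Targets of MYC outside the nucleolus were higher by about as much as the nucleolar genes, with a median of 0.31 and 35 of 37 above 0. In this list 4 of 37 rose and 0 fell, where 2.38% of all genes were called higher and 2.63% lower. The 4 were Mthfd2, an enzyme of mitochondrial folate metabolism (0.92, standard error 0.18, limma adjusted p = 0.0385), Eif3b, a translation initiation factor (0.50, standard error 0.10), Tomm40, the pore of mitochondrial protein import (0.49, standard error 0.10), and Pkm, pyruvate kinase (0.49, standard error 0.10).

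**Figure D3:**
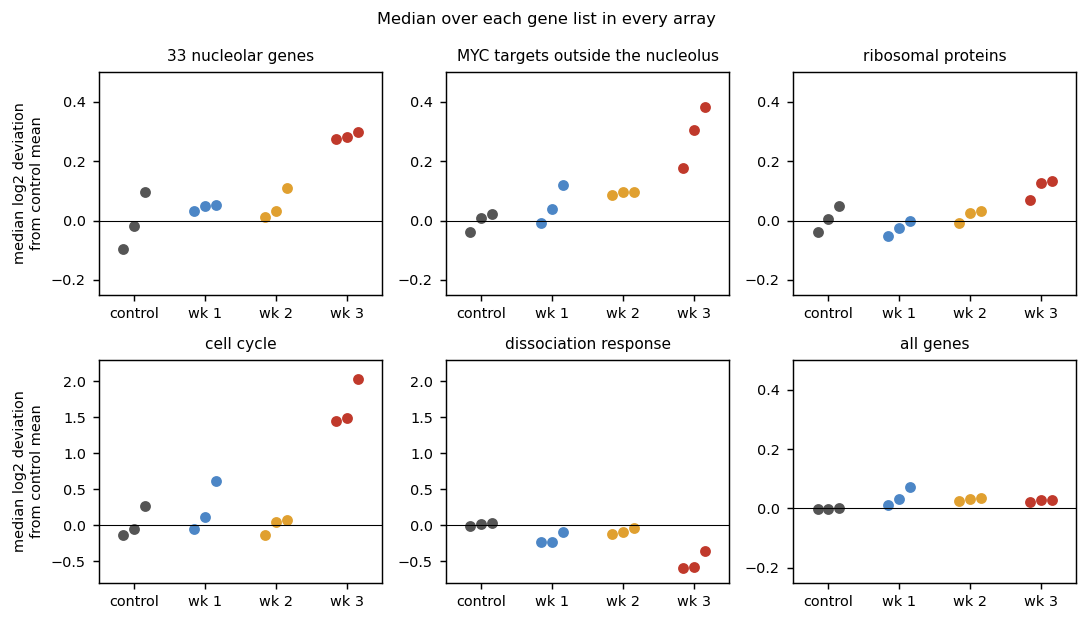
Median log2 deviation from the control mean over the genes of 6 lists in each array (points), by group. The lower panels of the cell cycle and the dissociation response have a wider scale. The 33 nucleolar genes lie between 0.28 and 0.30 at week 3 and at or below 0.11 in the other arrays.

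Other lists moved at week 3 too, and their part in the values of Myc and of the nucleolar genes was not tested. Of 14 cell cycle genes 12 rose, with a median of 1.67 (Rrm2, Aurkb, Top2a and Cdk1 by 2.27 to 2.39). Over all genes 2.63% were called lower at week 3. Of 15 genes that tissue dissociation induces 7 fell, with a median of -0.53, among them the immediate early gene Fosb (-0.91, limma adjusted p = 0.00846). The difference between the 3′ and 5′ control probe sets of Gapdh, a sign of RNA length, was 0.52 ± 0.16 (SD, n = 3) in control and 0.31 ± 0.08 at week 3.

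The 14 pan-endothelial markers had mean log2 signals of 12.91 to 13.01 in the control and week 3 arrays, and 0 of 14 passed the test. Markers of cell types other than ECs were read too, and some changed. At week 3 against control, 2.38% of all genes were called higher and 2.63% lower. The sort selected against many of these cells, but no marker specific to platelets was among those sorted against. Of 10 fibroblast markers 5 fell at week 3, and their mean log2 signal was 11.25 to 11.34 in control, 10.56 to 10.71 at week 1, 10.18 to 10.50 at week 2 and 10.54 to 10.66 at week 3. Of 6 alveolar type 1 and 6 alveolar type 2 markers 4 each fell, from 10.74 to 10.91 in control to 9.56 to 9.95, and from 11.38 to 11.47 to 10.27 to 10.81. Of 10 mural markers 2 fell (9.58 to 9.75 in control, 9.07 to 9.14 at week 3) and of 8 airway markers 2 fell (8.62 to 9.06 and 8.11 to 8.27). In the other direction, 1 of 8 leukocyte markers rose, with means of 8.41 to 8.97 in control, 7.75 to 8.52 at week 1, 7.86 to 8.503 at week 2 and 8.90 to 8.996 at week 3. From week 2 to week 3, 2 of the 8 rose (1.35% of all genes) and 7 were higher without overlap (12.9% of all genes). Of 10 macrophage markers 2 rose and 1 fell against control, with 8.22 to 8.35 in control, 8.03 to 8.13 at week 1, 7.84 to 8.46 at week 2 and 8.48 to 8.82 at week 3. Of 7 platelet markers 1 rose against control, Itgb3 (1.10, limma adjusted p = 0.00948). Of the 7, 4 had a difference from control above 0 and 3 below 0, with a median of 0.15. Against week 1, 4 of the 7 rose (0.649% of all genes). The means of the 7 markers were 8.91 to 9.21 in control, 8.08 to 8.38 at week 1, 8.74 to 8.87 at week 2 and 9.04 to 9.43 at week 3. Like Myc, the leukocyte, macrophage and platelet markers reached their highest means at week 3, where the leukocyte and platelet means overlapped control, and the part of these cells in the values of Myc was not tested. These log2 values have no true 0, so none of the markers can be called absent.

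How closely each nucleolar gene followed Myc was described by Pearson's r over the 12 arrays, which come from 4 groups and share the week 3 step. The highest were Npm1 (0.87), Fbl (0.84), Ncl (0.83), Polr1c (0.81) and Polr1a (0.81). The lowest were Nop14 (-0.01), Dkc1 (-0.04) and Rrp1b (-0.29). Over the 33 genes the median was 0.45, where the median of all genes was -0.01. Of the 33 genes 30 had r above 0, against 48.8% of all genes. Spearman's rho had a median of 0.31, and without the 2 arrays farthest from the median of Myc the median r was 0.32. By step, the median r was 0.81 for the 3 RNA polymerase I genes, 0.79 for the 3 box C/D proteins, 0.71 for the 4 multifunctional proteins, 0.44 for the 10 small subunit genes, 0.37 for the 11 large subunit genes and 0.23 for the 2 box H/ACA proteins. With so few genes in some steps, this order is a description.

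Without week 3 the median r differed between steps, a description only, since some steps hold few genes and r varied widely within steps. Over the 9 other arrays the median r of the 33 genes was -0.06, against -0.01 for all genes. Of the 33 genes 16 (48.5%) had r above 0, the same share as among all genes (48.7%). By step, the median r was 0.42 for the multifunctional proteins, all 4 above 0, 0.34 for box C/D proteins and 0.17 for RNA polymerase I. For the small subunit, large subunit and box H/ACA genes it was -0.10, -0.12 and -0.35. Within steps r ran from -0.18 (Nop56) to 0.78 (Nop58) for box C/D proteins. It ran from -0.42 (Bysl) to 0.60 (Utp18) for the small subunit and from -0.64 (Rrp1b) to 0.70 (Gnl3) for the large subunit. The highest over these 9 arrays were Nop58 (0.78), Gnl3 (0.70), Utp18 (0.60) and Polr1a (0.56). Of the other genes with the highest r over 12 arrays, Ncl had 0.45, Npm1 0.40, Fbl 0.34 and Polr1c 0.17. These 9 arrays still hold the step of Myc between week 1 and week 2.

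With each array taken as its deviation from the mean of its group, the median r was 0.05, close to that of all genes (0.03). By the deviations Polr1c had 0.29, Npm1 0.08, Ncl -0.12, Fbl -0.16 and Polr1a -0.42. By the deviations r was above 0 in 19 of 33 genes (57.6%), against 52.9% of all genes. In 18 of 33 genes r was above 0 both over the 12 arrays and by the deviations, as in 4899 of 18192 genes. That joint count also holds the week 3 step, since 30 of 33 were above 0 over the 12 arrays. Of these 18 genes, the highest by the deviations were Rrs1 (0.64 and 0.77), Utp18 (0.69 and 0.65), Nop58 (0.79 and 0.59) and Gnl3 (0.70 and 0.58). They are named here after their values were seen.

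**Figure D4:**
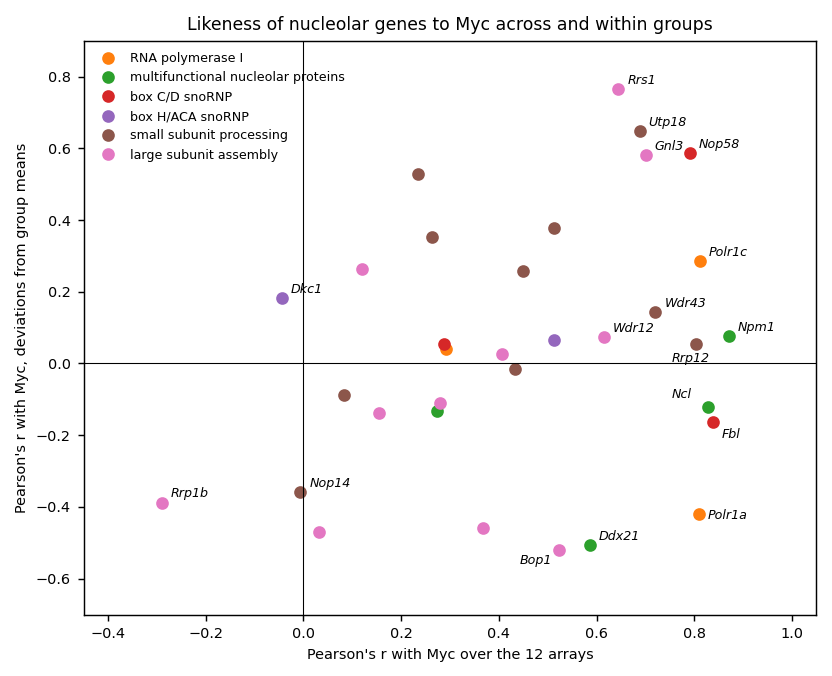
Pearson's r of each of the 33 nucleolar genes with Myc over the 12 arrays (horizontal) and over the same arrays as deviations from their group means (vertical), coloured by step. On the horizontal axis 30 of 33 points lie above 0 (median 0.45), and on the vertical axis 19 of 33 (median 0.05). Over all genes 48.8% and 52.9% were above 0, in that order.

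The order of the 4 group means describes the same values, week 3 step included, so it is no separate evidence. For Myc, week 1 and control did not differ beyond their spread. In 25 of 33 nucleolar genes (75.8%) week 3 was the highest group, as in 30.3% of all genes. The full order of Myc, from week 1 through control and week 2 to week 3, was shared by 5 of 33 (15.2%), against 4.0% of all genes. These 5 were Polr1a, Ncl, Ddx21, Nop58 and Gnl3, of which Ncl and Ddx21 are multifunctional proteins. No gene of the box H/ACA particles or of small subunit processing was among them.

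The promoters were searched for CACGTG, the canonical E-box bound by MYC with MAX, which reads the same on both strands. RefSeq promoter sequences (GRCm38.p6, 250 bases before to 50 after the start of each gene) were at hand for 28 of the 34 genes, not for Myc, Npm1, Fbl, Rrp12, Bop1 and Rrs1. The motif was in 6 of 28 (21.4%), against 8.91% of protein-coding genes and 7.15% of all promoter windows. All 6 belong to subunit processing and assembly, with 4 of 9 small subunit and 2 of 9 large subunit genes, and none of the 10 searched genes of the other steps had it. A stretch of 60 bases is shown for 5 of these genes, 5′ to 3′ on the strand of the gene, with the motif in capitals.
Wdr43: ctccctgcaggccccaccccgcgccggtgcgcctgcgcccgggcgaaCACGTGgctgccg
Utp18: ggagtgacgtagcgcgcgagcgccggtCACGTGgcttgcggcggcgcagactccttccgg
Imp4: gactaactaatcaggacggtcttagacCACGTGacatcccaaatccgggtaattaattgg
Nop2: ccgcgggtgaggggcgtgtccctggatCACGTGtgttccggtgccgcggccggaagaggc
Pes1: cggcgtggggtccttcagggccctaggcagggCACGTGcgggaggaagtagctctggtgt
They lie at chr17:71616185-71616244 (plus strand), chr11:93885754-93885813 (minus), chr1:34439681-34439740 (plus), chr6:125131796-125131855 (plus) and chr11:3963945-3964004 (plus), in that order. The motif began 17 bases after the start site in Wdr43, 20 before it in Utp18, 121 before it in Imp4, 60 before it in Nop2, 2 after it in Pes1 and 37 after it in Utp20, the gene not shown.

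Week 3 medians of the genes with and without the motif were close, and their difference was not tested. The 6 with it had a median difference of 0.21 from control (0.03 to 0.35) and a median r with Myc of 0.27, and the 22 without it had a median of 0.22 (-0.05 to 0.62) and a median r of 0.42. Wdr43, whose week 3 arrays stood above the other 9, carries it, and so does Utp20, whose week 3 arrays overlapped control (0.03, standard error 0.12). The contrast between these genes was not tested. A motif in these letters is not a measured binding site, and its lack in this window says nothing about MYC at these genes.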

How the data were processed

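RNA of sorted lung ECs was amplified, labelled and hybridized to Affymetrix mouse genome arrays. The deposited log2 values, 1 per probe set and array, were RMA-normalized by the authors in Chipster 3.8.0 and were used as deposited. They span 5.27 to 14.1, with array medians of 8.13, and RMA sets the arrays to a like distribution, so a shift shared by most genes would not be seen. Of 45101 probe sets 64 array controls were left out, and 34945 of the remaining 45037 carry 1 gene symbol. Each pair of groups had its own limma fit (version 3.58.1, R 4.3.3), with Benjamini-Hochberg correction over all 45037 probe sets and a threshold of 0.05. The study's methods name an empirical Bayes comparison of pairs of groups with this correction, and the threshold of 0.05 was chosen for this report. Simulated data served to test the fits.

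The members, steps and lists were chosen with earlier results of these data known. Values array by array are given for Myc, for the genes with the largest and the smallest week 3 change of each step, and for Wdr43 and Noc2l, picked after their values were seen. For other lists, members past the threshold (at most 4), or else the one of largest change, are named. No probability is given for a list or a correlation. Promoters come from RefSeq. Alternatives were a fit shared by all groups, a replicate block, single arrays left out, 2 other normalizations, a filter on low values (3 or more arrays above the overall median), other choices of probe sets, a trended and robust variance and array weights. Other steps ran in Python 3.11.15 with pandas 2.3.3.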

Additional observations from a re-analysis of the deposited data

Results flagged for a closer look

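The difference between weeks was itself past the threshold for Myc, which is why it is listed here. Myc was higher at week 3 than at week 2 by 0.89 and than at week 1 by 1.59 on the log2 scale (limma adjusted p = 0.0328 and 0.00982, n = 3 arrays per group, all 3 week 3 arrays above all others), so the difference of week 3 from control was larger than those of the earlier weeks, which share the control arrays. The call against week 2 was lost without any 1 of the 6 arrays, and that against week 1 without week 1 replicate 1 or week 3 replicate 3. Both were also lost with the replicate number as a block. For none of the 33 nucleolar genes did a difference between weeks pass the threshold in limma, and at an unadjusted p below 0.05 the counts were 9 against week 2 and 12 against week 1.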

How the results depend on the processing

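The rise of Myc at week 3 against control passed the threshold under every alternative tried, with log2 differences of 1.26 to 1.46 and adjusted p-values of 0.000302 to 0.0347. The count of the 34 genes past the threshold in that comparison was 1 (Myc), and it became 2 with a fit shared by all groups and with the mean of probe sets (Fbl added), 3 with the filter on low values (Fbl and Noc2l, 33 of the 34 genes measured), 3 with a trended and robust variance (Fbl and Npm1) and 2 over every probe set of the members (Fbl, chosen after seeing the data). Against week 2 the count of 1 became 0 without any 1 array, from 0 to 0 over the 6 arrays, 2 with the mean of probe sets (Gar1 added) and 3 with a trended and robust variance (Fbl and Npm1). Against week 1 it became 0 without week 1 replicate 1 or week 3 replicate 3, 2 with the shared fit (Fbl) and 3 with a trended and robust variance (Fbl and Npm1). In the other comparisons the count was 0 under every alternative tried. The replicate numbers do not pair the arrays (correlation of deviations between same-numbered arrays -0.10 to 0.06 over 18 pairs), and with the replicate number as a block the counts were 0 against week 2 (Myc 0.89, adjusted p = 0.0838) and 0 against week 1 (Myc 1.59, adjusted p = 0.0589).

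Genes near 0 against control changed sign when an array was left out, none of them past the threshold either way. Over the 6 arrays their differences ran from -0.046 to 0.317 for Nolc1, -0.016 to 0.118 for Nop56, -0.040 to 0.187 for Dkc1, -0.055 to 0.118 for Utp20, -0.031 to 0.227 for Nop14, -0.168 to 0.204 for Nop16, -0.040 to 0.305 for Pes1 and -0.218 to 0.120 for Rrp1b. With the mean of probe sets Nop16 was at 0.232, Rrp1b at 0.056 and, against week 1, Nip7 at -0.106. The median r with Myc was 0.45, and it was -0.057 over the 9 arrays without week 3 and 0.053 for deviations from the group means (chosen after seeing the data). The 3 arrays per group limit the precision of every value, and probe sets of 8 genes differ in sign.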
